A study of Homo sapiens with 6 samples.

Results

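TPT1 and 9 messages of the translation machinery and its partners were followed in TC-71 cells, wildtype or knocked out for XG. TC-71 is an established line from a human Ewing sarcoma. The 10 genes are TPT1, the elongation factor genes EEF1A1, EEF1B2, EEF1D, EEF1G and EEF2, the initiation factor gene EIF3E, the poly(A)-binding protein gene PABPC1, the nucleolar chaperone gene NPM1 and the histone chaperone gene NAP1L1. They were taken by symbol from a table of 60662 gene rows, and each symbol matched 1 row. The set was selected on its measured CPM and log2 fold changes between knockout and wildtype, TPT1 having the largest rise in level among called protein-coding genes whose groups did not overlap. Differences of these 10 genes between the groups are therefore given as a description, and counts of called members support nothing. The samples were 3 wildtype and 3 XG knockout libraries, all from untreated cells of this line, which was derived from bone per the labels. The product of XG sits at the cell surface and bears the Xg blood group antigen. The labels do not say how XG was disrupted, whether a pool or 1 clone was sequenced, or whether replicates came from separate cultures, so p-values rest on the spread among libraries, which may be technical.

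Messages of this class begin with a terminal oligopyrimidine (TOP) tract, a C at the cap followed by an unbroken run of C and T bases (U in the RNA). When the kinase mTORC1 is active they are translated efficiently, and when it is not the protein LARP1 binds the capped tract and holds them back while the RNA is kept. Ribosomal proteins and most elongation factors are made from such messages, which lets a cell adjust the whole apparatus together. RNA counts such as these report the amount of message and not its translation.

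The bases around the gene starts carry the feature by which the class is named, and are shown for the members with a start in the RefSeq promoter table (GRCh38.p14; 7 of 10 symbols matched). EEF1D, EIF3E and PABPC1 had no entry. Each line runs 5′ to 3′ on the gene's own strand from 35 bases before the RefSeq start to 20 bases from it on. Capitals mark an unbroken run of at least 5 C or T bases that begins with C at the start itself, and the letters TATA where they lie 40 to 20 bases before it.
TPT1: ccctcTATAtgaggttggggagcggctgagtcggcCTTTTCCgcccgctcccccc
EEF1A1: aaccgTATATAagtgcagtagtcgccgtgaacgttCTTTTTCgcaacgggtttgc
EEF1B2: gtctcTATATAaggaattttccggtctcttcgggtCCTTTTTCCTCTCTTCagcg
EEF1G: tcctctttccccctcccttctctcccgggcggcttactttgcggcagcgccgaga
EEF2: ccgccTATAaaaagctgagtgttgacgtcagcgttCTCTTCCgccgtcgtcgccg
NPM1: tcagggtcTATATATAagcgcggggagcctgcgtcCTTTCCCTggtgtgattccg
NAP1L1: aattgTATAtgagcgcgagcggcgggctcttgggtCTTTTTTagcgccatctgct
The windows lie at chr13:45341164-45341218 (TPT1, minus strand), chr6:73521013-73521067 (EEF1A1, minus), chr2:206159860-206159914 (EEF1B2, plus), chr11:62573872-62573926 (EEF1G, minus), chr19:3985444-3985498 (EEF2, minus), chr5:171387814-171387868 (NPM1, plus) and chr12:76084666-76084720 (NAP1L1, minus). The run measured 7 bases in TPT1, EEF1A1, EEF2 and NAP1L1, 8 in NPM1 and 16 in EEF1B2. The RefSeq start of EEF1G is an A, and no such run begins there.

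A run of this kind began at the start itself in 6 of the 7 genes, against 1404 of the 27305 genes in the table. By start it was 6 of 9, against 4.07% of the 35116 starts. Since the genes were named as TOP messages, this share describes the choice. The letters TATA, which read the same on both strands, lay in the stated stretch in the same 6 genes, at 6 of their 9 starts with EEF1G included, and at 5.96% of all starts. Both features together occurred at 58 of the 35116 starts (0.165%), and 6 of those belong to TPT1, EEF1A1, EEF1B2, EEF2, NPM1 and NAP1L1. Among ribosomal protein genes 46 of 62 with an entry had the run at the start, and 9 had both features. With any C-led run of at least 5 within 20 bases of the start on the gene's strand, all 7 genes matched, but so did 15296 of the 27305 genes. By start it was 8 of 9, against 50.98% of all starts. EEF1B2 and NPM1 each have a second start in the table, at which the run and TATA were both absent. These matches describe letters at annotated starts, not the starts used in these cells.

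Total counts ranged from 22557187 to 31214099 fragments per library. XG averaged 45.7 ± 1.37 CPM in the wildtype and 29.6 ± 0.642 CPM in the knockout libraries (SD, n = 3), 64.8% of wildtype, with no overlap. CPM here are counts scaled to a common library size. All 9 Ewing sarcoma markers examined exceeded 1 CPM, and their sum was 2726 to 2779 CPM in wildtype and 2649 to 2667 CPM in knockout libraries. Of 6 osteoblast markers ALPL (34.3 CPM in wildtype and 26.8 CPM in knockout on average) and RUNX2 (5.41 and 4.94 CPM) exceeded 1 CPM, and SP7 and IBSP had no count. None of 5 blood cell markers exceeded 1 CPM, with sums of at most 0.121 CPM. Of 5 fibroblast markers 3 exceeded 1 CPM, with sums of 38 to 41 CPM in wildtype and 36 to 43.5 CPM in knockout libraries. The osteoblast sum was 37.9 to 41.2 CPM in wildtype and 30.4 to 34.1 CPM in knockout libraries, and that of 4 epithelial markers 5.14 to 5.72 and 7.01 to 7.53 CPM, with 2 of the 4 over 1 CPM. The part of these shifts in the values of the members was not tested. Knockout replicate 3 stood apart from knockout replicates 1 and 2: the mean chi-square per gene was 4.71 and 4.29 against them, 2.57 between those 2, and 1.46 to 1.69 between wildtype libraries. Knockout replicates 1 and 2 were also lower for GC-rich messages in general, and values without replicate 3 and with a correction for GC content are given where they touch a member.

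The members are among the most abundant messages of the line. The 9 genes with counts took 2.42% to 2.53% of all fragments in each library. By CPM in wildtype cells EEF1A1 ranked 1, EEF2 4 and PABPC1 6 among 12388 tested protein-coding genes, NPM1 26, TPT1 38, EIF3E 73, NAP1L1 109, EEF1B2 255 and EEF1D 565. At this depth the standard error (SE) of their log2 fold changes had a median of 0.026, from 0.0223 for PABPC1 to 0.0416 for EEF1D, against 0.0636 over all tested genes. Since CPM are shares of a library and these are bulk samples, a change in total RNA per cell is not seen, and fewer cells that express a gene and less RNA per cell cannot be told apart.

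Compared per length, over the summed exon length of each gene in the count annotation, the wildtype order was EEF1A1 (1865 ± 38.4 CPM per kilobase), EEF2 (1064 ± 25.8), PABPC1 (983 ± 6.92), NPM1 (519 ± 6.34), EEF1B2 (285 ± 4.78), TPT1 (233 ± 2.31), EIF3E (190 ± 1.1), NAP1L1 (51.7 ± 0.843) and EEF1D (31.8 ± 0.513; SD, n = 3 for each). No neighbours in that order overlapped among the wildtype libraries. In knockout libraries EEF2 (979 ± 71.8 CPM per kilobase) and PABPC1 (943 ± 9.81) overlapped, and the other neighbours did not. The order depends on the length used. Over the median length of RefSeq-matched coding transcripts of GENCODE 29, NPM1 (1354 ± 16.5 CPM per kilobase) and EEF2 (1352 ± 32.8) did not differ beyond their spread in wildtype, and TPT1 (357 ± 3.54) ranked below EIF3E, EEF1B2 and NAP1L1. For TPT1 these lengths were 7269 and 4735 bases, and for EEF1D 9390 and 1458. They come from annotation, and the lengths of the messages made in these cells were not measured.

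EEF1G, which encodes the gamma subunit of the exchange complex that recharges eEF1A with GTP, could not be measured. Its row (ENSG00000254772.10, chromosome 11, 62559596 to 62574086, minus strand) held 1 fragment in all 6 libraries together. Of its 2639 exon bases 2632 (99.7%) also lie in exons of AP002990.1 (ENSG00000255508.7), annotated as protein-coding on the same strand, whose row held 34 fragments. Per the file headers no option was set to count fragments that overlap more than 1 gene, so a fragment in those bases was assigned to neither. The other 9 members kept at least 1601 exon bases to themselves on their strand, the shared part being largest in EEF1B2 at 16.4%. The level of EEF1G in these cells is thus unknown, and the row is left out below.

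TPT1 encodes the translationally controlled tumor protein, a small abundant protein linked to cell growth and survival that binds elongation factors. Its row (ENSG00000133112.16, chromosome 13, 45333471 to 45341370, minus strand) held 37697 to 46622 fragments in wildtype and 46591 to 57157 in knockout libraries. The level was 1687, 1710 and 1677 CPM in wildtype replicates 1, 2 and 3, and 1872, 1808 and 1793 CPM in knockout replicates 1, 2 and 3. Every knockout library lay above every wildtype library, including knockout replicate 3. The means were 1691 ± 16.8 and 1824 ± 41.8 CPM (SD, n = 3), so that knockout stood at 107.9% of wildtype. The log2 fold change was 0.11 (SE 0.0245), and the groups did not overlap, as in 10.7% of all tested genes with knockout higher.

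TPT1 was the member past the threshold used throughout, an adjusted p of 0.05 in edgeR's quasi-likelihood test over all 14425 tested genes. That is 1 of 9 tested members, beside 1.36% of all tested genes called and 0.444% called higher. The gene was put in the set for this difference, so nothing is read from the count. In the authors' deposited table the log2 fold change of TPT1 was 0.11 (SE 0.0257), and it was again the 1 member of 9 with an adjusted p under 0.05, beside 2.66% of the 7482 genes given one there. After correction for GC content the TPT1 log2 fold change was 0.085 (SE 0.0205), and without knockout replicate 3 it was 0.12 (SE 0.025), both past the threshold, beside 2.35% and 12.7% of all genes tested in those fits. It was not past the threshold without any 1 of the other 5 libraries, at log2 fold changes of 0.09 to 0.12.

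**Figure D1:**
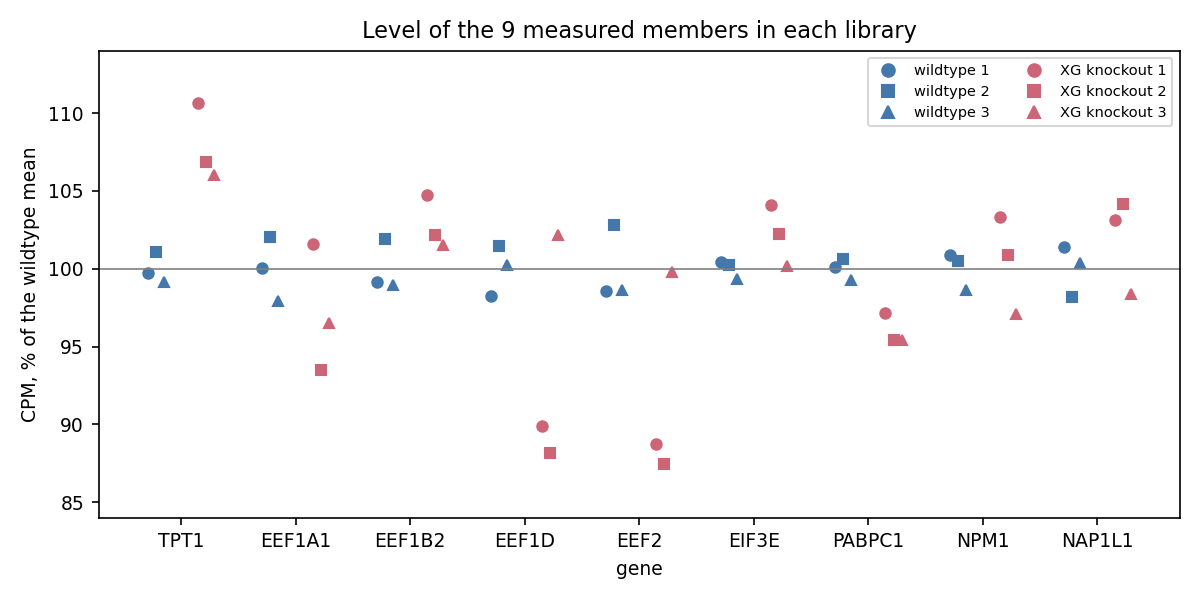
CPM of each measured member in each library, as a percentage of its wildtype mean (the axis does not start at 0); blue marks are wildtype and red marks XG knockout libraries, with a shape for each replicate number. TPT1 sits at 106% to 110.7% in the knockout libraries, and EEF1D and EEF2 sit at 87.5% to 89.9% in knockout replicates 1 and 2 but at 102.2% and 99.8% in replicate 3.

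EEF1A1 encodes the factor that brings aminoacyl-tRNAs to the ribosome. It measured 10215, 10415 and 9995 CPM in wildtype replicates 1, 2 and 3, and 10369, 9545 and 9851 CPM in knockout replicates 1, 2 and 3. The groups overlapped, knockout replicate 1 lying within the wildtype range and the other 2 below it, with a log2 fold change of -0.041 (SE 0.028).

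EEF1B2 and EEF1D encode the 2 subunits of the exchange complex that act on eEF1A directly. EEF1B2 measured 542, 557 and 540 CPM in wildtype replicates 1, 2 and 3, and 572, 558 and 555 CPM in knockout replicates 1, 2 and 3. The lowest knockout value, 555 CPM, lay just under the highest wildtype value, at a log2 fold change of 0.04 (SE 0.0258). EEF1D measured 293, 303 and 299 CPM in wildtype, then 269 and 263 CPM in knockout replicates 1 and 2, and 305 CPM in knockout replicate 3. The last value was above all 3 wildtype libraries while the other 2 were below them, so the log2 fold change of -0.098 (SE 0.0416) averages libraries on opposite sides of wildtype.

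EEF2 encodes the GTPase that moves the ribosome along the message after each peptide bond. It measured 4216, 4398 and 4220 CPM in wildtype replicates 1, 2 and 3. In knockout replicates 1, 2 and 3 it measured 3797, 3742 and 4268 CPM. As for EEF1D, knockout replicates 1 and 2 lay below all wildtype libraries. For EEF2 knockout replicate 3 lay within the wildtype range, and the log2 fold change was -0.12 (SE 0.037).

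The spread of EEF2 and EEF1D between knockout libraries was the widest of the set. Their coefficients of variation were 7.34% and 8.18% in knockout against 2.43% and 1.61% in wildtype libraries, where counting alone gives 0.299% and 1.12% in knockout. These 2 genes are the most GC-rich of the members measured, at 59.9% and 60.6% of the longest transcript, against a median of 48% over tested genes. The trend with GC content fitted in each library over all genes was -0.0899 and -0.069 (log2) in knockout replicates 1 and 2 at the GC content of EEF2, and 0.0494 in knockout replicate 3. With that trend removed the log2 fold change was -0.044 (SE 0.0213) for EEF2 and -0.016 (SE 0.0245) for EEF1D. Without knockout replicate 3 the values were -0.18 (SE 0.0257) for EEF2 and -0.17 (SE 0.0274) for EEF1D. Both genes were then past the threshold with TPT1, as 3 of 9 members beside 12.7% of the 14598 genes tested in that fit. With no filter on low counts TPT1 and EEF2 were called, beside 2.37% of 27252 genes.

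EEF2 lies on chromosome 19, where 736 of 981 tested genes had a negative log2 fold change, with a median of -0.095 against 0.0062 for genes elsewhere. After GC correction the chromosome 19 median was -0.037. The part that the chromosome and the GC content of its genes have in the value of EEF2 was not tested.

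**Figure D2:**
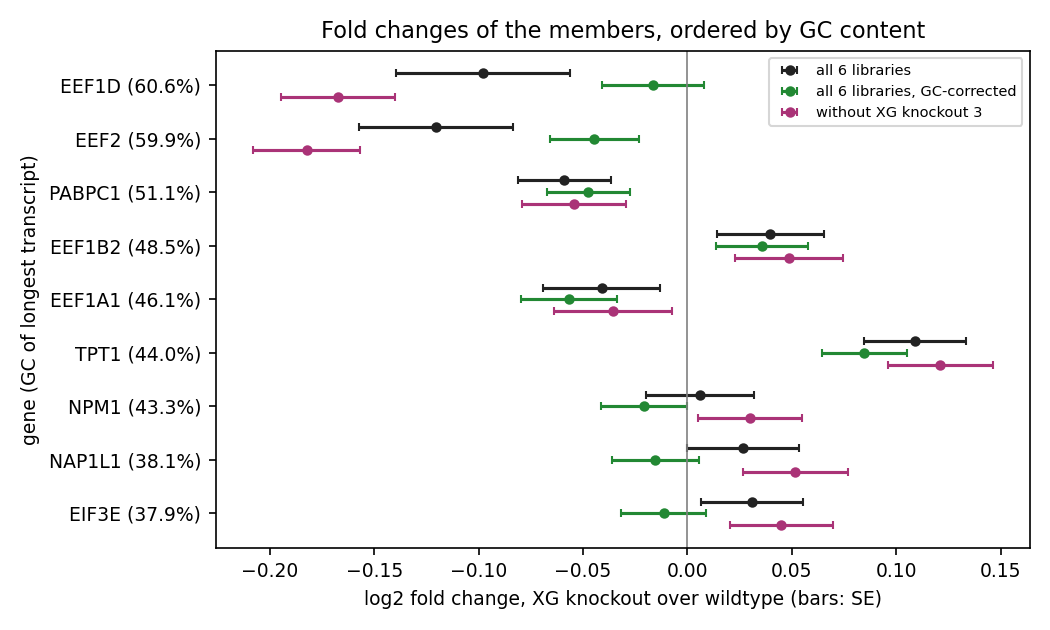
Log2 fold change of each measured member, XG knockout over wildtype, with its SE as the bar, with no correction and all 6 libraries (black), after GC correction (green) and without knockout replicate 3 (purple); genes are ordered by GC content. EEF1D and EEF2 move from -0.17 and -0.18 without replicate 3 to -0.016 and -0.044 after GC correction, and TPT1 stays between 0.085 and 0.12.

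EIF3E encodes a subunit of eIF3, the complex that prepares the small ribosomal subunit for initiation. It measured 1143, 1141 and 1131 CPM in wildtype replicates 1, 2 and 3, and 1185, 1163 and 1140 CPM in knockout replicates 1, 2 and 3. Knockout replicate 3 lay within the wildtype range and the other 2 above it (log2 fold change 0.031, SE 0.0243, and -0.011, SE 0.0203, after GC correction).

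PABPC1, the cytoplasmic poly(A)-binding protein, joins the tail of a message to its cap and promotes translation. It measured 4079, 4101 and 4044 CPM in wildtype replicates 1, 2 and 3, and 3959, 3889 and 3888 CPM in knockout replicates 1, 2 and 3. Each knockout value was under each wildtype value, as in 9.8% of all tested genes, with means of 4075 ± 28.7 and 3912 ± 40.7 CPM (SD, n = 3) and a log2 fold change of -0.059 (SE 0.0223). Together with TPT1 this made 2 of 9 members whose groups did not overlap, beside 20.5% of all tested genes. PABPC1 was not past the threshold, and the same values after GC correction and without knockout replicate 3 were -0.047 (SE 0.0198) and -0.054 (SE 0.0248).

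NPM1, which works in ribosome assembly in the nucleolus, measured 2006, 1998 and 1961 CPM in wildtype replicates 1, 2 and 3. In knockout replicates 1, 2 and 3 it measured 2054, 2006 and 1930 CPM, a range that spans that of wildtype (log2 fold change 0.0062, SE 0.026). NAP1L1, a carrier of histones H2A and H2B, measured 905, 877 and 896 CPM in wildtype replicates 1, 2 and 3. It measured 921, 930 and 878 CPM in knockout replicates 1, 2 and 3, replicate 3 lying inside the wildtype range and the other 2 above it (log2 fold change 0.027, SE 0.0269). NPM1 and NAP1L1 took negative values after GC correction, -0.021 (SE 0.0206) and -0.015 (SE 0.0208).

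Across the 9 members 5 log2 fold changes were positive and 4 negative, with a median of 0.0062, beside 0.0019 over all tested genes. After GC correction 2 were positive and 7 negative, with a median of -0.016 beside 0.0012. The median absolute log2 fold change was 0.041, beside 0.0716 over all tested genes.

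Ratios of counts inside a library do not depend on how libraries are scaled. TPT1 counts were 16.5%, 16.4% and 16.8% of EEF1A1 counts in wildtype replicates 1, 2 and 3. In knockout replicates 1, 2 and 3 they were 18.1%, 18.9% and 18.2%, all above wildtype. EEF1B2 counts were 5.35% ± 0.053 of EEF1A1 counts in wildtype and 5.67% ± 0.167 in knockout libraries (SD, n = 3), again without overlap. By its own CPM EEF1B2 overlapped between the groups. The groups also overlapped in the ratios of EEF2, PABPC1 and NPM1 to EEF1A1, and of NAP1L1 to NPM1. How many ratios of other genes separate the groups was not computed, and by CPM 20.5% of all tested genes did not overlap.

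EEF1D counts were 54.2%, 54.4% and 55.4% of EEF1B2 counts in wildtype replicates 1, 2 and 3. They were 46.9%, 47.2% and 55% in knockout replicates 1, 2 and 3, so that replicate 3 matched wildtype. Against EEF2, which is close to it in GC content, EEF1D stayed at 6.89% to 7.10% in wildtype and 7.04% to 7.15% in knockout libraries. EEF1D and EEF2 thus moved together from library to library. The part of GC content in this was not tested.

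**Figure D3:**
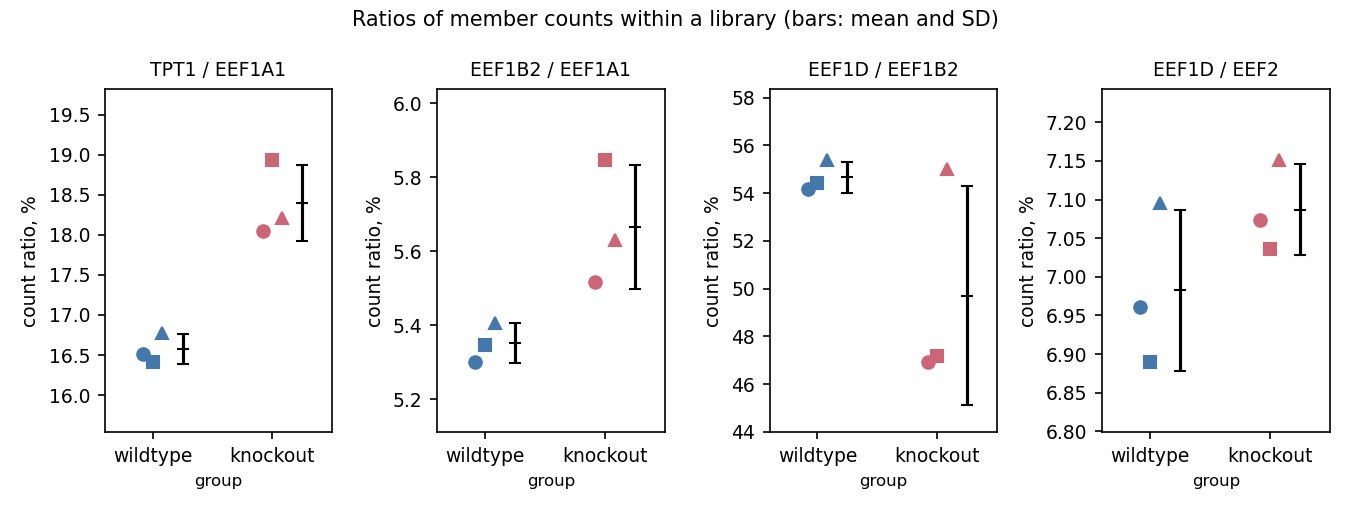
Count of 1 member as a percentage of another within each library, for 4 pairs; marks are libraries, and the bar beside them is the mean with its SD. The TPT1 to EEF1A1 ratio is 16.4% to 16.8% in wildtype and 18.1% to 18.9% in knockout libraries, and the EEF1D to EEF1B2 ratio drops to 46.9% and 47.2% in knockout replicates 1 and 2 alone.

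Many of these genes have processed pseudogenes, copies of the message in the genome that share its sequence, and fragments mapping to several places were not counted. The rows named as TPT1 pseudogenes were 14, of which 3 held counts, 63 fragments in all or 0.0221% of the 284556 of TPT1. EEF1A1 had 39 such rows with 9932 fragments, 0.612% of its own, most of them in EEF1A1P5. EEF1A1P5 measured 69.8 CPM in knockout replicate 1 and 41 to 44.4 CPM in the other 5 libraries. NPM1 had 46 rows with 5032 fragments (1.56%), of which NPM1P27 held 4613, with 26.2 to 29.9 CPM in wildtype against 27 to 31.1 CPM in knockout libraries. EEF1B2 had 8 rows with 823 fragments (0.919%), led by EEF1B2P6, and the rows of EEF1D, PABPC1 and NAP1L1 held 44, 29 and 23 fragments. The TPT1 difference between group means was 133 CPM, and TPT1P9, the copy of it with the most counts, reached 0.449 CPM. The part of the copies in the TPT1 difference was not tested. How many fragments of each member were set aside as multi-mapping is not given in the sources used here.

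The 5 protein-coding genes of at least 100 CPM whose log2 CPM followed TPT1 most closely over the 6 libraries were sought among 2331. They were WDFY1, ZMYM4, NUCKS1, GLG1 and RAB11A, with Pearson r of 0.993, 0.987, 0.986, 0.984 and 0.983. The 6 points share libraries, depth and group, and a gene that differs between the groups alone scores high. WDFY1 went from 96.8 ± 0.699 to 108 ± 4.14 CPM (SD, n = 3), and was called (edgeR adjusted p = 0.036). ZMYM4, NUCKS1, GLG1 and RAB11A were not called (edgeR adjusted p = 0.366, 0.12, 0.662 and 0.1). As the genes were picked for likeness to TPT1, nothing is read from the call of WDFY1. Of the other members EEF1B2 (0.898) and EIF3E (0.864) had the highest r with TPT1 and PABPC1 (-0.767) the lowest.

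Other genes of the same machinery were examined in 9 lists, and 0 of their genes were called higher, beside 0.444% of all tested genes, so that this count is near the background. An unadjusted p under 0.05 was found for 16.8% of all tested genes, and 1.36% were called in either direction, which is the background for the counts below. Of 16 other messages reported to carry a TOP tract, 0 were called by edgeR, 3 had an unadjusted p under 0.05, near the 16.8% of all tested genes, and DESeq2 and limma voom each called 1. Their median log2 fold change was 0.00038. VIM, the intermediate filament vimentin, had 1222, 1221 and 1204 CPM in wildtype and 1129, 1105 and 1173 CPM in knockout libraries, with -0.098 as its log2 fold change (SE 0.026; edgeR adjusted p = 0.0669). After GC correction VIM passed as lower, at -0.11 (edgeR adjusted p = 0.00372; 0.000411 to 0.286 over the alternatives).

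Noncoding hosts of small nucleolar RNAs can carry the tract, and their spliced RNA is degraded when ribosomes engage it. Among the 10 listed hosts with a RefSeq start, 4 had a C-led run at the start itself. Of 12 host genes 0 were called, 3 had an unadjusted p under 0.05 (beside 16.8% of all tested genes), DESeq2 called 1 and limma voom 0, with a median log2 fold change of 0.022. GAS5 measured 199, 186 and 194 CPM in wildtype and 212, 218 and 205 CPM in knockout libraries, with 0.13 as its log2 fold change (SE 0.0328; edgeR adjusted p = 0.0526). SNHG16 had -0.069 as its log2 fold change (SE 0.0277; edgeR adjusted p = 0.21). After GC correction GAS5 passed as higher (log2 fold change 0.10, edgeR adjusted p = 0.0258; 0.000161 to 0.297 over the alternatives) and SNHG16 as lower (-0.089, 0.0288; 0.0288 to 0.444).

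The largest family of TOP messages, the 77 cytosolic ribosomal protein genes, had 30 positive and 47 negative log2 fold changes, with a median of -0.014. In all 3 of 77 were called lower, RPL18 and RPS15 among them, beside 0.915% of all tested genes. RPL18, a protein of the large subunit, averaged 719 ± 13.7 CPM in wildtype and 642 ± 32 CPM after knockout (SD, n = 3; log2 fold change -0.16, SE 0.0316, edgeR adjusted p = 0.0149). RPS15, a protein of the small subunit, averaged 527 ± 7.39 CPM in wildtype and 457 ± 43.4 CPM after knockout (SD, n = 3; log2 fold change -0.21, SE 0.0444, edgeR adjusted p = 0.0295). The call of RPS15 was lost with DESeq2 (adjusted p = 0.17) and with at least 100 counts in 3 libraries (edgeR adjusted p = 0.0536; 1.59e-10 to 0.17 over the alternatives). The called genes lie on chromosome 19, where 12 of 12 ribosomal protein genes had a negative value, with a median of -0.11, against 35 of 65 elsewhere, with a median of -0.0065. Over all tested genes of chromosome 19, 736 of 981 were negative, with a median of -0.095. There 3.77% were called lower, against 0.707% of tested genes elsewhere. After GC correction 5 of the 77 were called, all lower, beside 2.35% of all tested genes called in that fit (339, of which 182 lower). The medians of ribosomal protein genes on and off chromosome 19 were then -0.06 and -0.011. The summed level of the family was 64835 to 66011 CPM in wildtype and 62227, 64619 and 65143 CPM in knockout replicates 2, 3 and 1.

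Among 30 initiation factors 0 were called, 7 had an unadjusted p under 0.05 (beside 16.8% of all tested genes), DESeq2 and limma voom called 0, and the median log2 fold change was 0.013. The eIF3 subunit genes EIF3G and EIF3K, both on chromosome 19, had the smallest p, at log2 fold changes of -0.12 (SE 0.0337, edgeR adjusted p = 0.0819) and -0.096 (SE 0.03, edgeR adjusted p = 0.114). In a list of 13 further elongation and termination factors and their partners 1 gene was called lower, beside 0.915% of all tested genes. That gene was VARS1, which is not itself an elongation or termination factor. VARS1, the valyl-tRNA synthetase that binds the eEF1 exchange complex, averaged 393 ± 6.30 CPM in wildtype and 350 ± 24.1 CPM after knockout (SD, n = 3; log2 fold change -0.17, SE 0.0373, edgeR adjusted p = 0.0302). Its GC content is 62.6%, and after GC correction VARS1 had a log2 fold change of -0.071 and was not called (edgeR adjusted p = 0.103; 2.55e-08 to 0.238 over the alternatives).

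Enzymes that modify eEF1A and eEF2 included 1 called gene of 14, again beside 0.915% of all tested genes called lower. DPH2, which helps make diphthamide, the modified histidine of eEF2, averaged 107 ± 3.47 CPM in wildtype and 95.1 ± 4.18 CPM after knockout (SD, n = 3; log2 fold change -0.17, SE 0.0388, edgeR adjusted p = 0.0395). After GC correction DPH2 was at -0.11 and still called. The call was lost with at least 100 counts in 3 libraries (edgeR adjusted p = 0.0528; 3.26e-05 to 0.254 over the alternatives). Of 18 regulators of TOP messages, LARP1 and mTORC1 subunits among them, 1 was called lower, beside the same 0.915%. RPTOR, the scaffold subunit of mTORC1, averaged 117 ± 1.58 CPM in wildtype and 105 ± 5.04 CPM after knockout (SD, n = 3; log2 fold change -0.15, SE 0.037, edgeR adjusted p = 0.0444). RPTOR has a GC content of 59.8%, and the call was lost after GC correction (log2 fold change -0.079, edgeR adjusted p = 0.148; 2.57e-05 to 0.268 over the alternatives).

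Among 11 relatives and partners of PABPC1, 0 were called, 0 had an unadjusted p under 0.05, and DESeq2 and limma voom called 0. PABPC4L and PAIP2B had log2 fold changes of 0.14 (SE 0.0745) and 0.15 (SE 0.0857). Of 12 tested relatives and nucleolar partners of NPM1 and NAP1L1, 0 were called, 2 had an unadjusted p under 0.05, and DESeq2 and limma voom each called 1. In this list 11 were negative, with a median of -0.033. Among all tested genes 736 of 981 on chromosome 19 and 6348 of 13444 elsewhere were negative. FBL, the methyltransferase fibrillarin, had -0.11 as its log2 fold change (SE 0.0271; edgeR adjusted p = 0.0599). NAP1L3, a low-level paralog of NAP1L1, had 5.97, 5.68 and 5.47 CPM in wildtype and 3.98, 4.68 and 3.90 CPM in knockout libraries (log2 fold change -0.44, SE 0.115, edgeR adjusted p = 0.0625). After GC correction NAP1L3 passed as lower (edgeR adjusted p = 0.0195; 0.0156 to 0.255 over the alternatives).

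With 1 library left out, VARS1, DPH2, RPTOR and RPS15 were called in 1 of the 6 fits, the 1 without knockout replicate 3, and RPL18 in 2. Their log2 fold changes stayed negative in these smaller fits, at -0.23 to -0.14 for VARS1, -0.20 to -0.14 for DPH2, -0.19 to -0.13 for RPTOR, -0.29 to -0.16 for RPS15 and -0.20 to -0.14 for RPL18.

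**Figure D4:**
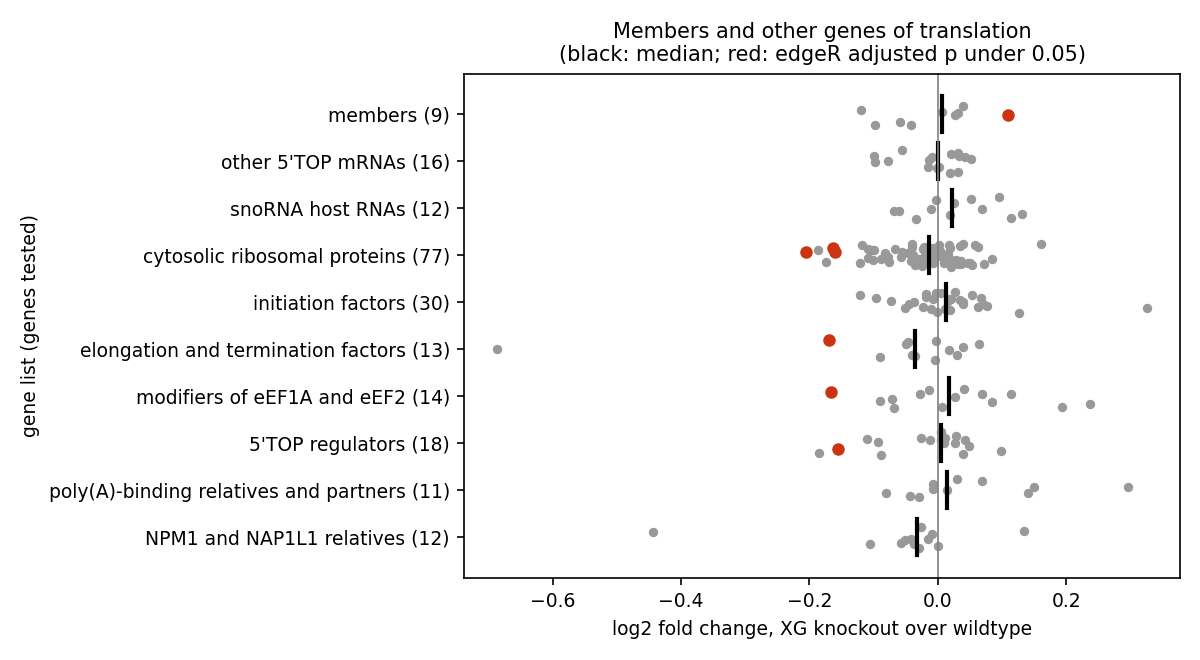
Log2 fold change of every tested gene in the member set and the 9 lists (1 point each; number tested in brackets), with the list median as a black bar and genes past an edgeR adjusted p of 0.05 in red. TPT1 is the single red point above 0, and the 6 red points in the other lists lie between -0.21 and -0.15.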

How the data were processed

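Members and lists were chosen with earlier results of these data known. Per the file headers, the authors ran featureCounts 2.0.1 (exons of GENCODE 33, paired ends, reverse strand, neither multi-mapping nor gene-overlapping fragments) to get the deposited raw counts; reads were aligned with STAR 2.7.6a to GRCh38, per the submitters' processing notes, and libraries were stranded mRNA, per the labels' protocols. Other lengths are exon lengths from the same table. The authors' deposited table gives log2 fold changes, their ratio to the standard error as a score, p-values and a mean normalised count signal, from DESeq2 1.38.3 per the submitters' processing notes; its signs matched knockout over wildtype for 99.2% of tested genes.

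Genes passing filterByExpr (14425) were scaled by TMM and tested with edgeR 4.0.16 (quasi-likelihood, two-sided, Benjamini-Hochberg over all tested genes), in R 4.3.3, with limma 3.58.1 and DESeq2 1.42.0 as alternatives. Standard errors were derived from the F statistic. The GC correction removed a lowess trend (span 0.5) on the GC content of each gene's longest GENCODE 29 transcript, known for 99.5% of tested genes. The scripts were tested on simulated data. Named genes are the members, up to 4 called genes per list by smallest p (or the 2 with the smallest p where none was called), 5 genes most like TPT1, each member's most counted pseudogene, and XG. Some genes that the rule names are not reported here.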

Additional observations from a re-analysis of the deposited data

How the results depend on the processing

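TPT1 kept a positive log2 fold change, 0.085 to 0.12, under all 15 alternative fits, and EEF1A1, EEF1B2, EEF1D, EEF2 and PABPC1 also kept their sign; the cause of the changes below was not tested. Reversed signs were seen for EIF3E, NPM1 and NAP1L1 with GC correction (-0.011, -0.021 and -0.015, the same to 2 decimals with the replicate block added), and for NPM1 without wildtype replicate 3 (-0.0073), knockout replicate 1 (-0.015) or knockout replicate 2 (-0.00028), within a leave-one-out range of -0.015 to 0.030. Genes past the threshold numbered 196 (64 higher, 132 lower); there were 647 with no filter on low counts, 339 (157 higher, 182 lower) with GC correction, 37 with the replicate block (189 with GC correction added), 33 at an adjusted p of 0.01, and 18 to 1851 when 1 library was left out, the highest without knockout replicate 3. Members past it were 2 with no filter (EEF2 added), 0 with the replicate block, with or without GC correction, 0 at 0.01, and 0 to 3 with 1 library left out. Genes of the 9 lists past it were 6, against 11 with DESeq2, limma voom or GC correction, 23 with no filter, 2 with at least 100 counts in 3 libraries, 0 with the replicate block (7 with GC correction added), 0 at 0.01, and 0 to 45 with 1 library left out. The labels do not say whether replicate numbers pair the samples. Deviations of same-numbered libraries correlated at -0.043, -0.015 and -0.048. With 3 libraries per group, and knockout replicate 3 apart from the other knockout libraries, these values cannot exclude a pairing.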
